A study of Homo sapiens and Mus musculus with 13 samples.

Results

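ATP-binding cassette (ABC) genes were taken as every row of the mouse count tables whose symbol is Abc followed by a subfamily letter from a to g, a number and at most 1 further letter. They numbered 50 of 37991 genes, and 27 of them reached a mean normalized read count of 10 over the 5 mouse libraries and were tested. The other 23 stayed below it, 10 of these without a read in any library. Tap1, Tap2 and Cftr belong to the same protein superfamily under other names and are given separately.

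RNA was sequenced from a mouse haematopoietic progenitor line made by HOXB8 immortalization. All 5 libraries share this background and a medium with 1 uM beta-estradiol and 1% SCF (stem cell factor) conditioned medium. The knock-in group holds 3 single-cell clones that carry NPM1c, introduced with CRISPR/Cas9 and described by the submitters as NPM1ca-GFP. Editing, single-cell cloning and the GFP of that description go with NPM1c in all 3 clones and cannot be told apart from it here. NPM1c is the leukaemia mutant of nucleophosmin that accumulates in the cytoplasm. The parental group holds 2 libraries of the same line, labelled wild type, and no label says whether these are separate cultures, which leaves it unknown how far their spread is technical. Clones are named by the sample titles (12, 18 and 4), since the column headers of the same files give the clone numbers in another order. The 8 human leukaemia libraries of the series were not used here.

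ABC proteins bind and hydrolyse ATP through a conserved cassette and mostly use it to move substrates across membranes. The A subfamily moves lipids, C exports conjugated metabolites, D imports fatty acids into peroxisomes, G moves sterols, and B is mixed, with drug efflux pumps at the cell surface and smaller transporters in mitochondria and lysosomes. The E and F proteins have the cassette but no membrane part and act on ribosomes. In blood cells the family is known for drug efflux from stem and leukaemia cells and for cholesterol efflux from myeloid cells.

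Values are read counts that the submitters divided by a size factor per library. They are not scaled to transcript length, so levels are compared between libraries and not between genes. Recovered reads totalled 7358340 to 12235174 in the clones, 9728260 in parental replicate 1 and 99557475 in parental replicate 2. Npm1, the targeted gene, had 15141, 14144 and 14305 in clones 12, 18 and 4, against 25695 and 25714 in parental replicates 1 and 2. In bulk RNA, fewer cells of a kind and less RNA per cell cannot be told apart.

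In the clones 7 of the 27 tested ABC genes were higher and 2 lower than in the parental libraries (adjusted p under 0.05, limma on log2(value + 1), adjusted over 13132 genes). That is 33.3% of the tested members, where 16.0% of all tested genes were called; 7.51% of all genes were called higher and 8.49% lower. Called higher were Abca8b, Abcb9, Abcc5, Abcc3, Abcc1, Abca7 and Abca2, and called lower were Abcd2 and Abca3. The median log2 fold change was 0.25 over the tested members and 0.01 over all tested genes, and 20 of the 27 members had a positive value, as did 51.1% of all tested genes. Clone and parental libraries did not overlap in 13 members that were higher and 4 that were lower, or 63% of those tested, against 50.2% of all tested genes (24.5% higher and 25.8% lower). At an unadjusted p under 0.05 (limma), 12 members were higher and 2 lower, where 31.1% of all tested genes passed in either direction. Fewer members were called when a clone was left out: without clone 12 there were 2 higher and 2 lower (14.8% of members, 7.79% of all genes). There were 6 higher and 1 lower without clone 18 (25.9% and 12.7%), and 6 higher and 2 lower without clone 4 (29.6% and 16.1%). The count of members called also fell when either parental library was left out, which leaves 1 library in that group, as did the count of all genes called. The median log2 fold change of the members was then 0.43 without parental replicate 1 and 0.23 without parental replicate 2. Over all tested genes this median was -0.006 and -0.008. Abca8b, Abcb9 and Abcd2 reached the minimum mean through the group in which they were high, having means of 0.458 and 3.45 in the parental libraries (Abca8b and Abcb9) and 0.939 in the clones (Abcd2), so their calls follow in part from the filter. Of the 9 called members, only Abca8b and Abca2 were called under all 14 alternative settings tried.

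**Figure D1:**
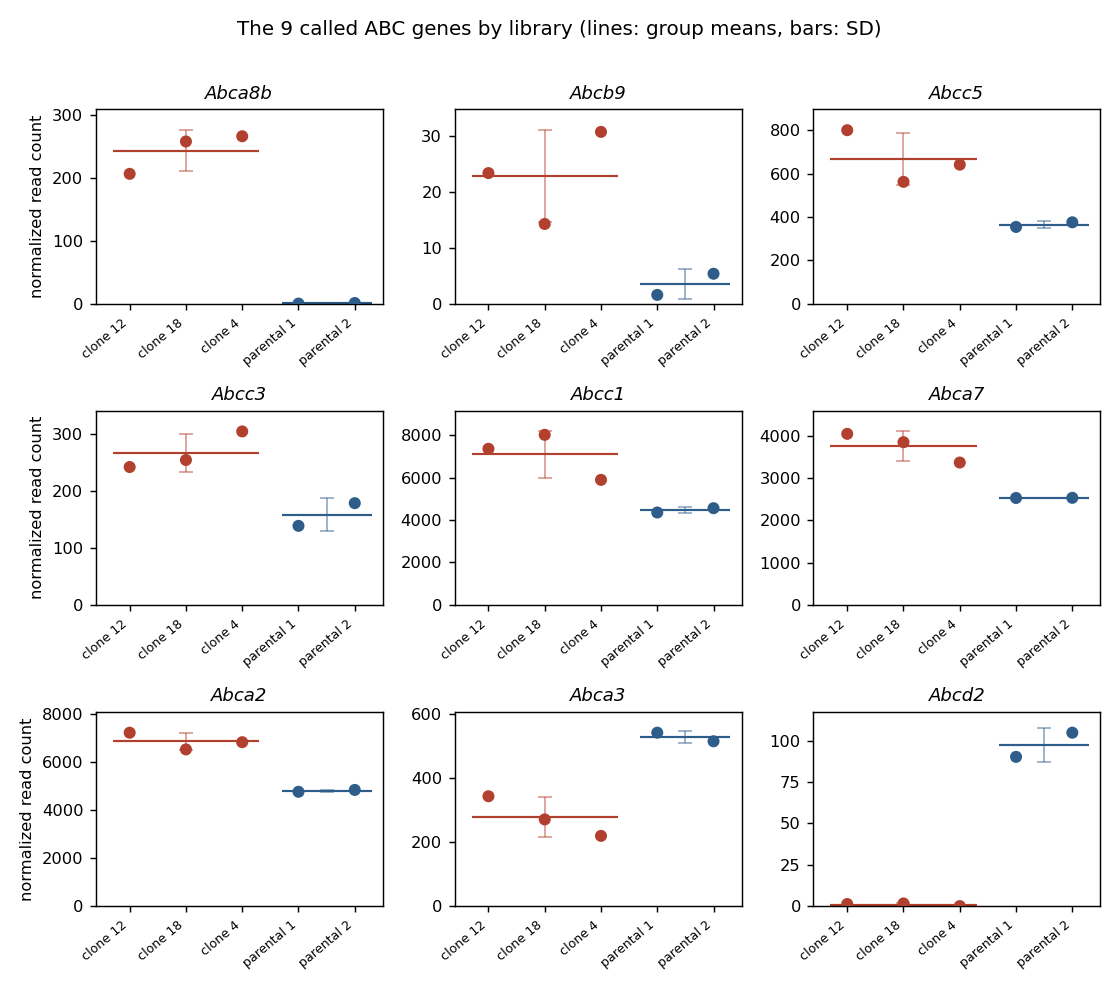
Normalized read count (vertical axes from 0) of the 9 called ABC genes in each clone and each parental library; points are libraries, lines are group means and bars are SDs. Abca8b is near 0 in both parental libraries and Abcd2 near 0 in the 3 clones, while the other called genes differ between the groups by smaller factors.

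Among the A subfamily, 5 of 16 genes were tested, with 3 higher, 1 lower and 1 not called. Of all tested genes, 7.51% were called higher and 8.49% lower. Abca8b, which supports cholesterol efflux in mice, had 206.8, 258.4 and 266.7 in clones 12, 18 and 4, against 0 and 0.916 in parental replicates 1 and 2. The clones lay close together and the parental libraries held 6 reads in all. The ratio of pooled reads was 286, with a 95% counting interval of 131 to 784. On the log2(value + 1) scale the fold change was 7.46 (SE 0.370, adjusted p = 8.52e-05, limma), and it ran from 4.60 with a pseudocount of 10 to 8.21 across the alternatives. Since all 6 parental reads came from the deep replicate 2, the ratio without that library has no parental read. With 3 counts set for replicate 1, the pooled clone level was 51.2 times that floor. Reads of Abca8b can be shared with its neighbour and close relative Abca8a. Abca8a itself had 1.23, 0 and 12.3 in clones 12, 18 and 4 and no parental read. With 3 counts set over the parental group, the pooled clone level was 8.69 times that floor, with no counting error allowed for the 7 clone reads. Of these reads 6 were in clone 4, and without clone 4 a single read was left. Without parental replicate 2 the clone level of 3.63 was under the 4.66 that 3 counts give in replicate 1. Abca9, Abca6 and Abca5, the other members of the same gene cluster, stayed at or below 1.59 in every library.

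The other tested A genes moved by smaller amounts. Abca2, a lipid transporter of late endosomes and lysosomes, had 7221, 6524 and 6825 in clones 12, 18 and 4, against 4761 and 4838 in the parental libraries. It was 1.43-fold higher (log2 0.51, SE 0.0806, adjusted p = 0.00635, limma), and every clone lay above both parental libraries. Abca7, which moves phospholipids and acts in phagocytosis, had 4043, 3846 and 3364, against 2526 and 2530. It was 1.48-fold higher (log2 0.56, SE 0.103, adjusted p = 0.0111, limma). The call was lost without clone 12 or parental replicate 2 (adjusted p = 0.0522 and 0.0546, limma), the highest being 0.0546 over the 14 alternatives and the lowest 3.09e-05. Abca3, which loads surfactant lipids into the lamellar bodies of lung cells, had 343.5, 271.1 and 219.5, against 542.2 and 515.4. It was 1.93-fold lower (log2 -0.95, SE 0.202, adjusted p = 0.0189, limma). This call was lost without clone 18, parental replicate 1 or parental replicate 2 (adjusted p = 0.0532, 0.0621 and 0.0677, limma) and with no filter on low values (0.0567); over the alternatives it ran from 0.000616 to 0.0677.

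Abca1, the exporter of cholesterol to lipid-poor apolipoprotein, was not called. It had 203.1, 155.3 and 490.3 in clones 12, 18 and 4, against 156.9 and 169.3 in the parental libraries, so clone 4 stood apart and clone 18 lay below both parental values. The log2 fold change was 0.61 with a 95% confidence interval of -0.60 to 1.81. Of all tested members detected in every clone, its clones were the farthest apart, with the highest 3.16 times the lowest. The same ratio was under 1.5 in 20 of the 27 tested members.

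In the C subfamily 6 of 10 genes were tested. Of these 3 were higher and 3 not called, where 7.51% of all tested genes were called higher. None was lower with limma, edgeR or DESeq2, where limma called 8.49% of all tested genes lower. At an unadjusted p under 0.05 (limma), 5 C genes were higher and 0 lower. Of all tested genes, 31.1% passed that cut in either direction. Abcc1 (MRP1), which exports glutathione conjugates and leukotriene C4, had 7362, 8021 and 5896 in clones 12, 18 and 4, against 4355 and 4559 in the parental libraries. It was 1.58-fold higher (log2 0.66, SE 0.131, adjusted p = 0.0156, limma). Abcc5 (MRP5), an exporter of cyclic nucleotides, had 801.4, 562.7 and 642.1, against 354.2 and 375.7. It was 1.81-fold higher (log2 0.86, SE 0.173, adjusted p = 0.0156, limma). Abcc3 (MRP3), an exporter of glucuronides and bile acids, had 241.3, 253.6 and 303.6, against 138.3 and 178.0. It was 1.68-fold higher (log2 0.75, SE 0.188, adjusted p = 0.0339, limma). In all 3 genes each clone lay above each parental library, but each call was lost when certain single libraries were left out. Abcc1 and Abcc5 stayed called without clone 18 (adjusted p = 0.0356 and 0.0179, limma) and without clone 4 (0.00111 and 0.0218). Abcc1 was not called without clone 12, parental replicate 1 or parental replicate 2 (adjusted p = 0.0681, 0.0607 and 0.0635, limma), with 0.000160 to 0.0681 over the alternatives. Abcc5 was not called without clone 12, parental replicate 1 or parental replicate 2 (0.0554, 0.0505 and 0.0525), with 0.000161 to 0.0554 over the alternatives. Abcc3 was not called without clone 12, clone 18, clone 4 or parental replicate 1 (0.0784, 0.0708, 0.0614 and 0.126), with 0.0143 to 0.126 over the alternatives. With no filter on low values, Abcc1 and Abcc3 had an adjusted p of 0.0530 and 0.0707 (limma).

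Abcc4 (MRP4), which exports cyclic nucleotides and prostaglandins, had 2044, 2110 and 2070 in clones 12, 18 and 4, against 1802 and 1695 in the parental libraries. Its libraries did not overlap, but the log2 fold change of 0.25 (95% confidence interval 0.04 to 0.46) was not called (adjusted p = 0.109, limma). Abcc10 likewise did not overlap and was not called, at 187.1, 294.8 and 246.2 against 167.8 and 160.3 and a log2 fold change of 0.54 (0.04 to 1.04, adjusted p = 0.134, limma). Abcc2, the exporter of bile canaliculi, had a log2 fold change of 0.18 (-0.42 to 0.78).

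**Figure D2:**
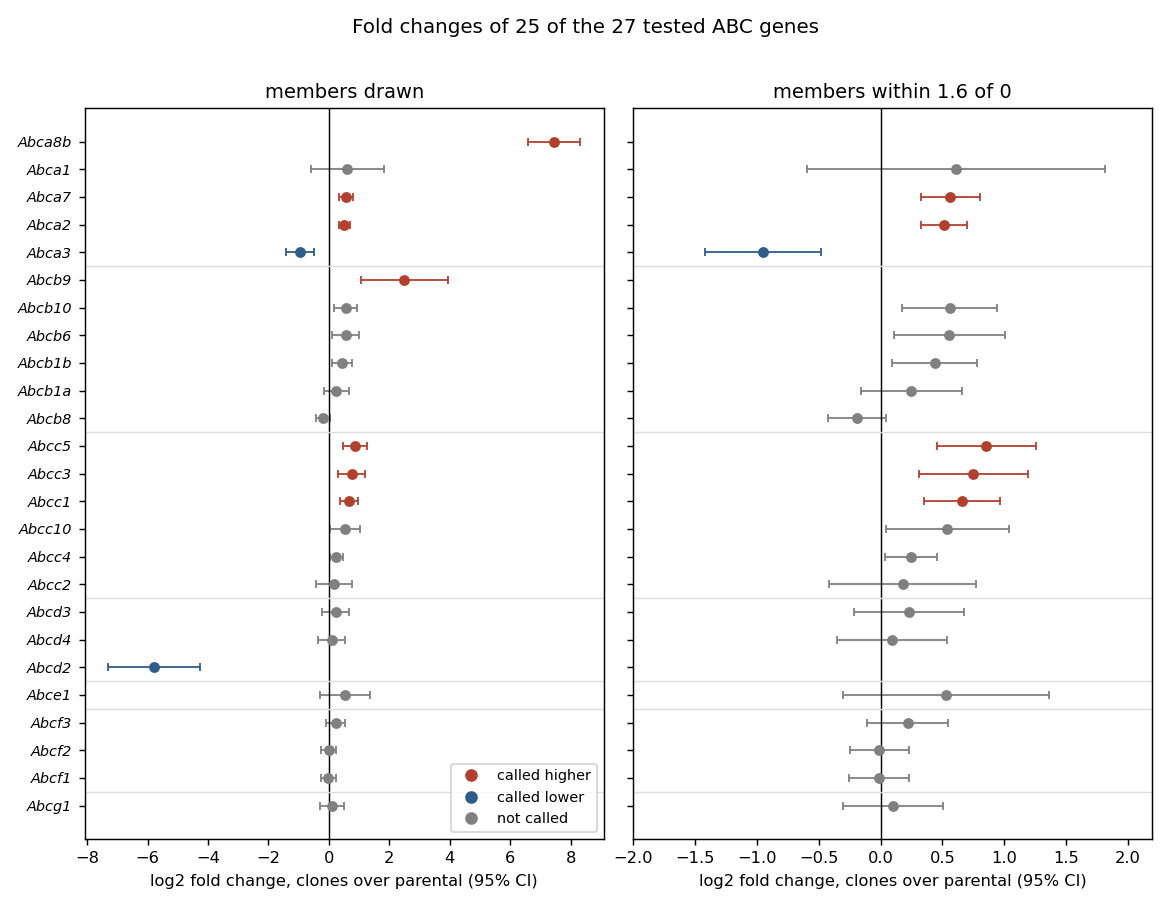
log2 fold change of the clones over the parental libraries with its 95% confidence interval (horizontal axes) for 25 of the 27 tested ABC genes, ordered by subfamily from A at the top to G at the bottom; the right panel enlarges the genes near 0. Abca8b (7.46) and Abcd2 (-5.77) lie far from the rest, and the 6 C genes all lie above 0.

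The B subfamily had 7 of 10 genes tested, of which 1 was higher and 6 were not called, where 7.51% of all tested genes were called higher. Abcb9, a lysosomal peptide transporter related to Tap1 and Tap2, had 23.4, 14.3 and 30.8 in clones 12, 18 and 4, against 1.55 and 5.34 in the parental libraries. Every clone was above both parental libraries, on 43 clone reads and 36 parental reads. The ratio of pooled reads was 4.45 (95% counting interval 2.79 to 7.13), and 14.3 without parental replicate 2 (2.44 to 579), where it rests on 1 parental read. Its log2 fold change was 2.50 (SE 0.625, adjusted p = 0.0335, limma), or 1.84 without parental replicate 1, 3.16 without parental replicate 2 and 1.27 with a pseudocount of 10. The call was lost without clone 12, clone 4, parental replicate 1 or parental replicate 2 (adjusted p = 0.108, 0.0616, 0.135 and 0.0525, limma) and with no filter (0.0609), the lowest over the alternatives being 0.0238. With a mean of 15.1 it was the tested member nearest to the minimum, followed by Abcd2 at 39.5, while Abcb4 at 7.18 and Abcg3 at 6.04 were the nearest below it.

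The drug efflux pumps of the B subfamily did not pass the test. Abcb1a and Abcb1b, the pair of genes for mouse P-glycoprotein, may share reads. Abcb1a had 445.6, 380.4 and 519.0 in the clones, against 343.4 and 407.8 in the parental libraries (log2 0.25, 95% confidence interval -0.16 to 0.66). Abcb1b had 281.9, 291.7 and 313.9, against 219.1 and 216.6, without overlap (log2 0.44, 0.10 to 0.78, adjusted p = 0.0858, limma). Abcb4, the phosphatidylcholine transporter of bile, had 9.85, 7.93 and 6.15, against 3.11 and 8.85, which overlap.

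None of the 4 mitochondrial B genes was called by limma or by edgeR, while 2 were higher at an unadjusted p under 0.05 (limma) and 2 with DESeq2. Of all tested genes, 31.1% passed the unadjusted cut in either direction, and 9.88% were called higher with DESeq2. Abcb10, which acts in haem synthesis, had 418.6, 429.6 and 441.1 in the clones, against 337.2 and 252.1 in the parental libraries (log2 0.56, adjusted p = 0.0598, limma). It passed without parental replicate 1 (0.0252) and with DESeq2 on the recovered reads (0.0231), and ran from 0.0231 to 0.245 over the alternatives. Abcb6, a porphyrin transporter, had 728.8, 917.8 and 599.0, against 458.3 and 547.3 (log2 0.56, adjusted p = 0.0956, limma), and passed without clone 4 (0.0283) and with DESeq2 (0.0448), with 0.297 as the highest over the alternatives. Both genes had every clone above both parental libraries. Abcb8, which takes part in mitochondrial iron export, had 1748, 1937 and 1742, against 1983 and 2149, with every clone below both parental libraries, and a log2 fold change of -0.19 (95% confidence interval -0.42 to 0.04).

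All 4 D genes were tested, and 1 was lower, where 8.49% of all tested genes were called lower. Abcd2, which imports very long chain fatty acids into peroxisomes, had 1.23, 1.59 and 0 in clones 12, 18 and 4, against 90.1 and 104.7 in the parental libraries. The clones held 2 reads in all and the parental libraries 744. Pooled reads were 99.8 times lower in the clones (95% counting interval 27.5 to 826). On the log2(value + 1) scale the fold change was -5.77 (SE 0.655, adjusted p = 0.00170, limma). It was -3.30 with a pseudocount of 10 and -6.57 with DESeq2. Without parental replicate 2 it was -5.67, with an adjusted p of 0.0501 (limma), the highest over 13 alternatives, of which the lowest was 1.46e-07. Abcd3, the abundant peroxisomal membrane transporter, and Abcd4, which exports cobalamin from lysosomes, overlapped between the groups, with log2 fold changes of 0.23 (-0.21 to 0.68) and 0.09 (-0.35 to 0.54).

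Abcg1, which exports cholesterol to lipoprotein particles, was the only tested gene of the 6 in the G subfamily. It had 461.6, 391.5 and 475.9 in the clones, against 473.9 and 359.2 in the parental libraries, which overlap (log2 0.10, 95% confidence interval -0.31 to 0.50). Abcg3, a rodent gene related to Abcg2, had 0, 3.17 and 0 in clones 12, 18 and 4, against 17.1 and 9.92. Pooled reads were 10.2 times lower in the clones (95% counting interval 2.73 to 85.7), on 2 clone reads, both in clone 18, and 76 parental reads. The ratio was 5.91 without clone 12 and 16.5 without parental replicate 2. Without clone 18 no clone read was left, and the pooled parental level was 4.58 times the level of 3 counts over clones 12 and 4. It was called lower where the minimum mean was 1 (adjusted p = 0.0454, limma) and not without a filter (0.0822). Abcg2, the efflux pump that marks the side population of blood stem cells, had 1 read in clone 12 and none elsewhere. Abcg5 and Abcg8, which together export plant sterols, had no read.

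**Figure D3:**
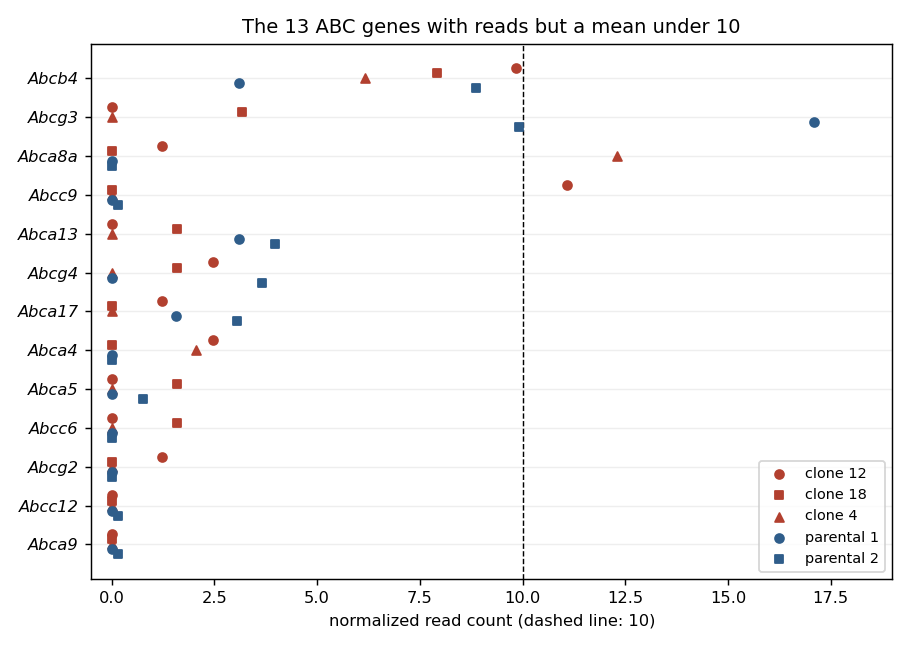
Normalized read count (horizontal axis, dashed line at 10) in each library of the 13 ABC genes that had reads but a mean under 10. Abcg3 is at or above 9.92 in both parental libraries and at most 3.17 in the clones, and Abca8a and Abcc9 pass 10 in a single clone each.

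Of the other genes under the minimum, Abcc9, a subunit of ATP-sensitive potassium channels, had 11.1 in clone 12, 0 in clones 18 and 4, and 0 and 0.153 in the parental libraries, so its 9 clone reads came from a single clone. Abca13 had 0, 1.59 and 0 in the clones, against 3.11 and 3.97. In 19 of the 23 genes every library was below 5. The 10 genes without a read included the bile salt exporter Abcb11, the skin lipid transporter Abca12 and the insulin-secretion channel subunit Abcc8. A count of 0 allows a normalized read count of up to 1.55 over the pooled clones and 0.417 over the pooled parental libraries, counting error only.

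None of the 4 genes for cassette proteins that act on ribosomes was called by limma, edgeR or DESeq2, and 0 had an unadjusted p under 0.05 (limma). Of all tested genes, limma called 16.0%, and 31.1% had an unadjusted p under 0.05 (limma). Abce1, which splits ribosomes after translation ends, had 1192, 1122 and 1338 in the clones, against 1260 and 560.4 in the parental libraries, so the parental libraries stood farther apart than the groups. Its log2 fold change was 0.53 with all libraries, 1.11 without parental replicate 1 (adjusted p = 0.00524, limma) and -0.05 without parental replicate 2 (0.867). In no other tested member did parental replicate 2 lie below replicate 1 by more than 1.5 times. Abcf1, which acts in translation initiation, had 2058, 2031 and 1984, against 2223 and 1880 (log2 -0.01, 95% confidence interval -0.26 to 0.23). Abcf2 overlapped between the groups, with a log2 fold change of -0.01 (-0.25 to 0.23). Abcf3 did not overlap and was not called, with 0.22 (-0.11 to 0.55).

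Summed over the 50 genes, the value was 33692, 33421 and 31359 in clones 12, 18 and 4, against 25987 and 24989 in the parental libraries. The A genes summed to 11058 to 12022 in the clones and to 7991 and 8061 in the parental libraries, and the C genes to 9217 to 11338 and to 6883 and 7030. The B genes summed to 4076, 4354 and 4089, against 3875 and 4020. Abcc1, Abca2 and Abca7 together made up 80.7% of the difference between the mean sums, since sums without length scaling follow the genes with the most reads.

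**Figure D4:**
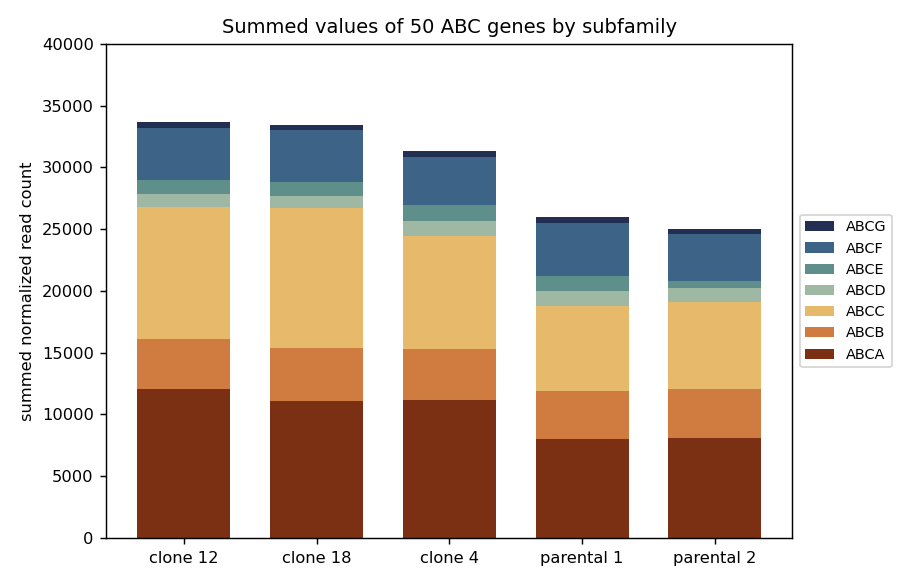
Summed normalized read count of the 50 ABC genes (vertical axis from 0) in each library, stacked by subfamily. The 3 clones reach 31359 to 33692 and the parental libraries 24989 and 25987, with the A and C segments taller in the clones.

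The transporters associated with antigen processing changed in opposite directions. Tap2 had 4347, 4678 and 4167 in clones 12, 18 and 4, against 3527 and 3104 in the parental libraries (log2 0.41, SE 0.0970, adjusted p = 0.0277, limma). Tap1, its partner in the same heterodimer, had 4475, 4224 and 4101, against 5290 and 5709 (log2 -0.37, SE 0.0850, adjusted p = 0.0257, limma). Both calls were lost without clone 12, clone 18 or parental replicate 2 (adjusted p = 0.0948, 0.0743 and 0.160 for Tap2 and 0.0668, 0.0642 and 0.149 for Tap1, limma), Tap1 also without parental replicate 1 (0.0504), and Tap2 also without a filter (0.0599). The lowest over the alternatives were 0.00269 and 0.00212. Cftr, the chloride channel of the superfamily, had no read. In the list of peptide loading partners 2 of 10 tested identifiers were higher, none was lower, and the median log2 fold change was 0.26, where 16.0% of all tested genes were called. Parental replicate 2 stood apart in this list, which summed to 43091 to 48192 in the clones and to 38255 and 31004 in parental replicates 1 and 2. B2m, the light chain of MHC class I, had 1167, 1320 and 1766, against 1311 and 217.1. The higher genes were the chaperone Calr, at 21510, 22101 and 24567 against 16365 and 14025, and the Tap adaptor Tapbp, at 2831, 2844 and 3007 against 2042 and 2012 (adjusted p = 0.00701 and 0.00854, limma).

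Partner genes of the C exporters were taken from a list of glutathione genes and other targets and regulators of NRF2, the transcription factor of the oxidative stress response. Of 14 tested identifiers 7 were higher, none was lower and 7 were not called, with a median log2 fold change of 0.70. Of all tested genes, 7.51% were called higher and 8.49% lower. The 7 were Gclm, Gclc, Hmox1, Srxn1, Nqo1, Mafg and G6pdx, of which Gclm and Gclc act in glutathione synthesis itself. Nqo1, with a parental mean of 4.41, reached the minimum mean through the clones, so its call follows in part from the filter. Mafg has a called identifier with a log2 fold change of 0.61 and a further one with -0.15 (adjusted p = 0.763, limma, not called). Gclm and Gclc, the subunits of the rate-limiting enzyme of glutathione synthesis, were 2.11-fold and 2.54-fold higher (adjusted p = 0.00121 and 0.00307, limma). Gclm had 3914, 4102 and 3309 in the clones, against 1816 and 1752 in the parental libraries. Gclc had 945.5, 927.3 and 787.8, against 411.7 and 292.2. Hmox1, which degrades haem, had 871.6, 976.4 and 465.7, against 111.9 and 123.2 (6.21-fold higher, adjusted p = 0.00319, limma). Among lipid mediator genes, whose products Abcc1 and Abcc4 export, 2 of 9 were higher and 7 not called, with a median of 0.46, where 7.51% of all tested genes were higher. Alox5, which starts leukotriene synthesis, had 1721, 1447 and 652.4, against 21.8 and 15.0 (61.8-fold higher, adjusted p = 0.000928, limma). Hpgds, a prostaglandin D synthase, had 208.0, 168.0 and 268.7, against 96.3 and 102.0 (adjusted p = 0.0170, limma), a call lost without clone 12, parental replicate 1 or parental replicate 2 (0.0632, 0.0565 and 0.0638) and without a filter (0.0509), the lowest over the alternatives being 0.000957.

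Of 14 sterol handling genes, the partners of the A and G exporters, 1 was higher, 3 were lower and 10 not called, with a median of -0.09. Over all tested genes 7.51% were called higher and 8.49% lower. At an unadjusted p under 0.05 (limma), 1 of the sterol genes was higher and 6 were lower. Of all tested genes, 31.1% passed that cut in either direction. Npc1, which releases cholesterol from lysosomes, had 574.9, 594.4 and 765.2 in the clones, against 338.7 and 331.4 in the parental libraries (adjusted p = 0.00986, limma). Scarb1, the HDL receptor, had 2195, 2333 and 2031, against 3225 and 3534, and fell by 0.63 on the log2 scale (adjusted p = 0.00673, limma). Srebf1, a regulator of lipid synthesis, had 5285, 5034 and 5393, against 6479 and 6989 (adjusted p = 0.0224, limma), a call lost without clone 12, clone 18 or parental replicate 2 (0.0831, 0.0606 and 0.137), the lowest over the alternatives being 0.00129. Calls in the remaining lists lay below the 16.0% of all tested genes. None of 9 tested peroxisome genes was called by limma or edgeR (median -0.12), with 2 higher and 2 lower at an unadjusted p under 0.05 and 1 lower with DESeq2. Of the rest, 1 of 14 haem and iron-sulfur genes was higher (median 0.06) and 1 of 10 translation partners was lower (median 0.07). With DESeq2 the haem list had 1 higher and 1 lower, and at an unadjusted p under 0.05 (limma) it had 3 in each direction. Over all tested genes, DESeq2 called 20.4%, and 31.1% had an unadjusted p under 0.05 (limma). The largest fold change of the haem list was that of Alas1, the first enzyme of haem synthesis (log2 -1.32, adjusted p = 0.0505, limma, not called). Alas1 had 1064, 1533 and 687.2 in the clones, against 2682 and 2523 in the parental libraries. Every clone lay below both parental libraries, and the adjusted p of Alas1 ran from 0.000218 with DESeq2 to 0.142 without parental replicate 2. The called haem gene was Uros, at 357.0, 367.8 and 379.5 against 226.8 and 245.2 (adjusted p = 0.0221, limma), and it was not called without clone 12, clone 18, parental replicate 1 or parental replicate 2 (0.0769, 0.0584, 0.0639 and 0.0556; lowest 0.00194). The translation gene was the release factor Gspt1, at 4235, 4453 and 4126 against 5593 and 5726 (adjusted p = 0.0144, limma), not called without clone 12 or parental replicate 2 (0.0656 and 0.0820; lowest 0.000101).

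Markers of the labelled cell type were present: 7 of 8 progenitor markers were found and tested, with 3 higher in the clones, 1 lower and 3 not called. Of all tested genes, 7.51% were called higher and 8.49% lower. They summed to 71979 to 75792 in the clones and to 88653 and 96573 in the parental libraries. That order came from Mpo, a granule enzyme of myeloid progenitors, at 13844, 20009 and 7872 in clones 12, 18 and 4, against 42873 and 38610 in the parental libraries (adjusted p = 0.0629, limma, not called). Without Mpo the other 6 genes summed to 58134, 54910 and 67921 in the clones, against 53700 and 50044.

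Mast cell and basophil markers were higher in the clones in 4 of 6 tested genes, and 2 were not called, where 7.51% of all tested genes were called higher. The marker sum was 5441, 8010 and 7318 in clones 12, 18 and 4, against 3490 and 1260 in the parental libraries. In every library most of it came from Cpa3 and Hdc, the 2 genes not called (adjusted p = 0.225 and 0.139, limma). Cpa3 had 2748, 3139 and 4388, against 2450 and 386.2, so parental replicate 2 stood apart. Hdc had 1096, 2733 and 1368, against 784.6 and 720.9. Il1rl1, the interleukin-33 receptor, had 529.4, 440.7 and 592.9, against 0 and 1.83. The tryptase gene Tpsb2 had 213.0, 361.4 and 75.9 and no parental read. Ms4a2, a chain of the IgE receptor, had 241.3, 584.9 and 324.1, against 17.1 and 31.3, and the basophil protease gene Mcpt8 had 606.9, 719.6 and 562.1, against 237.7 and 118.8. All 4 called genes had every clone above both parental libraries and were called under every alternative. Over all tested genes, 24.5% had every clone above both parental libraries. Il1rl1 and Tpsb2, with parental means of 0.916 and 0, reached the minimum mean through the clones, so their calls follow in part from the filter. The markers Mcpt4 and Tpsab1 reached no more than 1.59 and 6.15 in any library, and Fcer1a had 2.46, 11.1 and 0 and no parental read.

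Monocyte and macrophage markers summed to 4799 to 8895 in the clones and to 8393 and 8946 in the parental libraries, mostly from the chemokine receptor gene Ccr2. Without Ccr2 the other 8 genes summed to 736.2, 1022 and 1223 in the clones, against 484.8 and 546.1. In the clones most of this remaining sum was Emr1. The called gene of the 6 tested was Emr1, a macrophage surface receptor, at 531.8, 659.4 and 937.5, against 153.8 and 190.5 (4.01-fold higher, adjusted p = 0.00269, limma), while C1qa reached no more than 1.23. Csf1r, Cd14 and Cd68 overlapped between the groups, with log2 fold changes of -0.02, -0.64 and -0.12. Ly6c2 had 0, 25.4 and 0 in clones 12, 18 and 4, against 45.1 and 38.0 (log2 -3.83, adjusted p = 0.142, limma, not called). Erythroid markers summed to 4267 to 4899 and to 5030 and 5885, nearly all from the transferrin receptor gene Tfrc, which other dividing cells also express. Without Tfrc the other 7 genes summed to 104.6, 58.6 and 88.2 in the clones, against 3.11 and 4.89, and 3 of them were at 0 in every library. The beta globin genes Hbb-b1 and Hbb-b2, whose reads may be shared, were higher: Hbb-b1 had 61.6, 25.4 and 51.3, against 0 and 0.763, and Hbb-b2 had 35.70, 19.02 and 24.62, against 0 and 0.458. Both globin genes reached the minimum mean through the clones, so their calls follow in part from the filter. Stromal and endothelial markers summed to 7533 to 9240 in the clones and to 3387 and 3604 in the parental libraries, nearly all from Pecam1. Pecam1, the 1 of 3 tested genes called higher, had 8356, 7452 and 9160 in the clones, against 3302 and 3493. Pdgfrb and Vwf overlapped between the groups and were not called, with log2 fold changes of 1.25 and -0.52. Col1a2, under the minimum mean, was lower in every clone than in both parental libraries. Pdgfra and Cdh5 were at 0, and Kdr and Col1a1 reached no more than 1.59 and 1.23 in any library. The part of these markers in the ABC gene differences was not tested.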

How the data were processed

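For alignment, quantification and scaling the submitters' processing notes list STAR 2.6.1, RSEM and DESeq2, with hg19 and mm9 as builds and no roles. Annotation and strandedness are not stated, so overlapping antisense genes cannot be told apart. Mouse libraries were made with the NEBNext Ultra II kit, per the labels' protocols. Each deposited mouse file gives a signal for every Ensembl gene, which the values show to be reads scaled by the authors with a size factor for each library: 100% of nonzero values were multiples of a single read's value, within 0.01 of a read. Human files were not used.

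Groups came from the sample titles. All genes with a mean of at least 10 were fitted with limma 3.58.1 (R 4.3.3, trend and robust moderation) on log2(value + 1), clones against parental, with Benjamini-Hochberg adjustment over 13132 genes and a threshold of 0.05. Fold changes on this scale understate those of low genes. P-values measure the spread between these libraries. Ratios of pooled reads have exact 95% intervals, and floors use 3 counts. Both cover counting error only. A ratio to a floor takes the reads of the other group as observed. Alternatives were other pseudocounts, filters and scalings, edgeR 4.0.16 and DESeq2 1.42.0 on the recovered reads, and each library left out. Fits were tested on simulated data. The members, gene lists and tests were chosen with earlier results of these data known. Named with values were all called members, the 6 with the highest mean, those under a mean of 10 with a library at 10 or more, the 2 nearest to the minimum on either side, Tap1, Tap2, Cftr, and up to 3 called genes of each related list; others were chosen after their values were seen. Lists covered peptide loading, sterol efflux, NRF2 and glutathione, peroxisome, haem and iron-sulfur, translation partners and lipid mediators, with 5 marker lists. Genome positions and sequences are not given here. Values of 2 uncalled members are not reported here, though they are in all counts, medians and sums.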

Additional observations from a re-analysis of the deposited data

How the results depend on the processing

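The 7 higher and 2 lower members kept these counts with pseudocounts of 0.5 and 10, with library totals or TMM as the scaling, and with edgeR. With a minimum mean of 50 there were 6 higher and 1 lower (28.0% of members, 17.1% of all genes), and with no filter 4 and 1 (12.5% and 7.03%). With a minimum mean of 1 there were 7 and 3 (29.4% and 13.1%), and with DESeq2 9 and 2 (40.7% and 20.4%). Leaving out each library gave 2 to 6 higher and 0 to 2 lower; a lone parental library was then assumed to vary like the clones. Among single members, directions turned only in uncalled genes. Leaving out each library gave log2 fold changes of -0.018 (without clone 18) to 0.32 for Abcc2. They were -0.019 to 0.20 for Abcd4, -0.054 to 1.11 for Abce1 and -0.10 to 0.30 for Abcg1, each negative without parental replicate 2. For Abcf1 they were -0.14 to 0.11, positive without parental replicate 1. For Abcf2 they were -0.053 to 0.041, positive without parental replicate 1 (0.031) and clone 4, and the value was 0.00078 with library totals. The cause was not tested. No paired analysis was possible because the clone numbers and the parental replicate numbers share none. Depth limits the members with few reads: the clones pool 29020663 reads, the parental libraries 109285735, of which 99557475 are of replicate 2.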

Other observations

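Grouped by build, a grouping chosen after the values were seen, 13 tested members are single-chain transporters, 10 must pair with a second chain, and 4 have no membrane part. Of the single-chain transporters 6 were called higher and 1 lower, with a median log2 fold change of 0.54, where 7.51% of all tested genes were called higher and 8.49% lower (limma). Of those that pair, 1 was higher and 1 lower, with a median of 0.09, while 3 were higher and 1 lower with DESeq2 and at an unadjusted p under 0.05 (limma). Of those without a membrane part 0 were called by limma, edgeR or DESeq2 and 0 had an unadjusted p under 0.05, with a median of 0.10. Over all tested genes, DESeq2 called 20.4%, and 31.1% had an unadjusted p under 0.05 (limma). The counts by build were not tested against each other.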
